A study of Caenorhabditis elegans with 2 samples.

Results

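The genes for the proteins of the large subunit of the cytosolic ribosome were taken as all protein-coding genes of *Caenorhabditis elegans* whose symbol starts with rpl- or rla-, without the mitochondrial mrpl- genes. They were 50 of 19973 protein-coding genes, of which 47 are rpl- and 3 are rla- genes. RefSeq names 48 of them as large subunit proteins. The exceptions are rpl-24.2, named there as a putative ribosome biogenesis protein, and rpl-42, named as a protein with a NAM-associated domain. The peaks came from ChIP-seq against an eGFP-tagged transcription factor in whole L2 larvae of strain OP355, of the genotype unc-119(tm4063) III with the integrated transgene wgIs355. The larvae were of mixed sex, and 2 biological replicates of this 1 group were deposited. The labels disagree on the tagged protein: the source and antibody fields give mdl-1, the description gives ZK337.2. The sources used here do not give the promoter of the transgene or the read depth, and no control library was used here.

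The large subunit holds the peptidyl transferase centre, where peptide bonds form on ribosomal RNA, and the tunnel through which the new chain leaves. Its proteins fold and hold the RNA, build the stalks that handle elongation factors and leaving tRNA, and contact the small subunit. Nearly all are needed in every growing cell, and larvae that grow fast transcribe these genes at a high level. Messenger RNAs of many worm genes, ribosomal protein genes among them, are trans-spliced to a leader, so that an annotated start can lie downstream of the place where transcription began. A gene was called bound when a summit lay from 1000 bp upstream to 200 bp downstream of one of its annotated transcript starts in the authors' reproducible set of 2103 peaks, chosen by irreproducible discovery rate (IDR set). In whole larvae a higher peak cannot be told apart from binding in more cells.

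The strings that recurred at the summits are shown first, because the results on sequence turn on them. The 4 members of highest signal follow, as the 101 bases centred on the IDR summit, 5′ to 3′ on the strand of the gene (ce11, read from the RefSeq WBcel235 genome). Capitals mark the heptamer CGAGTGT and the hexamer ACCGTA on either strand, so that the reverse complement of the hexamer appears as TACGGT.
rpl-15 (chrIV:654875-654975, minus strand): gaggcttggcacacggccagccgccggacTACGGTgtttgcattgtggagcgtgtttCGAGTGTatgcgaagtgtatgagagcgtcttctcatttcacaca
rpl-3 (chrIII:3867525-3867625, plus strand): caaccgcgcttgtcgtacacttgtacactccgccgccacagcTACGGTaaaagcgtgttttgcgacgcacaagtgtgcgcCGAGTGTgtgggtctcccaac
rpl-35 (chrIII:7854635-7854735, plus strand): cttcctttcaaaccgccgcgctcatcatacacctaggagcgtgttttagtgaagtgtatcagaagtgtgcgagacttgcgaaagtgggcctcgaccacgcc
rpl-20 (chrIV:4750015-4750115, minus strand): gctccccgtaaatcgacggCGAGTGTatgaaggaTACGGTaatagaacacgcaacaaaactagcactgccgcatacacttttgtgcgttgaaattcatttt

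In the promoter windows of 9 members the heptamer and the hexamer stood side by side, with 1 base between them, and 6 of the 9 stretches are printed here. They are shown with 12 bases on either side, on the strand that reads CGAGTGT first. That is the strand of the gene for these 6, while at rpl-1, one of the 3 not printed, it is the opposite strand. Capitals mark the whole arrangement of 14 bases.
rpl-22 (chrII:5055374-5055411): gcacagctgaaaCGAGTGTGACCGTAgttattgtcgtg
rpl-6 (chrIII:7208064-7208101): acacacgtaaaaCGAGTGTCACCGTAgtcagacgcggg
rpl-21 (chrIII:8130506-8130543): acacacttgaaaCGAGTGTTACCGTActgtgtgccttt
rpl-11.2 (chrX:2242948-2242985): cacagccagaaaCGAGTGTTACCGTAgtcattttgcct
rpl-34 (chrIV:12268555-12268592): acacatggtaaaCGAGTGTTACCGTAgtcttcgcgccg
rpl-29 (chrIV:13881967-13882004): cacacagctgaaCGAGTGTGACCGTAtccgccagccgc

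Of the 50 large subunit genes, 24 (48%) were bound, against 6.55% of all protein-coding genes. No peak was shared by 2 members, so that 24 peaks stood for 24 genes. All 24 summits lay upstream of the start, as did those of 95.3% of other bound genes. The median signal of the 24 peaks, a deposited value whose scaling is not stated, was 52.8, close to the 52.4 at the 1284 other bound genes. Of the 24 peaks, 5 were among the 200 of highest signal and 13 had a rank above 1000 of 2103. Bound members were found on every chromosome, with 7 of 17 on I (against 6.60% of all protein-coding genes there), 4 of 9 on II (5.80%), 7 of 9 on III (9.47%), 4 of 8 on IV (6.28%), 1 of 5 on V (4.21%) and 1 of 2 on X (9.23%). Both replicates come from 1 group, so no conditions could be compared, and counts stand beside the same count over all protein-coding genes, with no test.

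Each replicate was also read on its own, from the 2103 peaks of highest signal in its list (its top list). In replicate 1, 22 members (44.0%) had a summit in the window, against 6.36% of all genes, and in replicate 2, 20 members (40%) had one, against 6.46%. The mean of the replicates was 42.0% ± 2.83 (SD, n = 2). In both top lists at once there were 16 members, all of them bound, against 4.58% of all genes. Of the other bound genes, rpl-4, rpl-7, rpl-25.2, rpl-36 and rpl-43 were in the top list of replicate 1 only, and rpl-21, rpl-22 and rpl-36.A in that of replicate 2 only. All 24 had a summit in the full, relaxed list of each replicate, and so had 1277 of the 1284 other bound genes. The choice of the IDR set by agreement of the replicates nearly fixes this outcome. Among these 24 genes, replicate 1 and replicate 2 signal had a Spearman correlation of 0.612 across genes, against 0.638 over 1277 other bound genes, as a description of genes in the same pair of libraries.

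**Figure D1:**
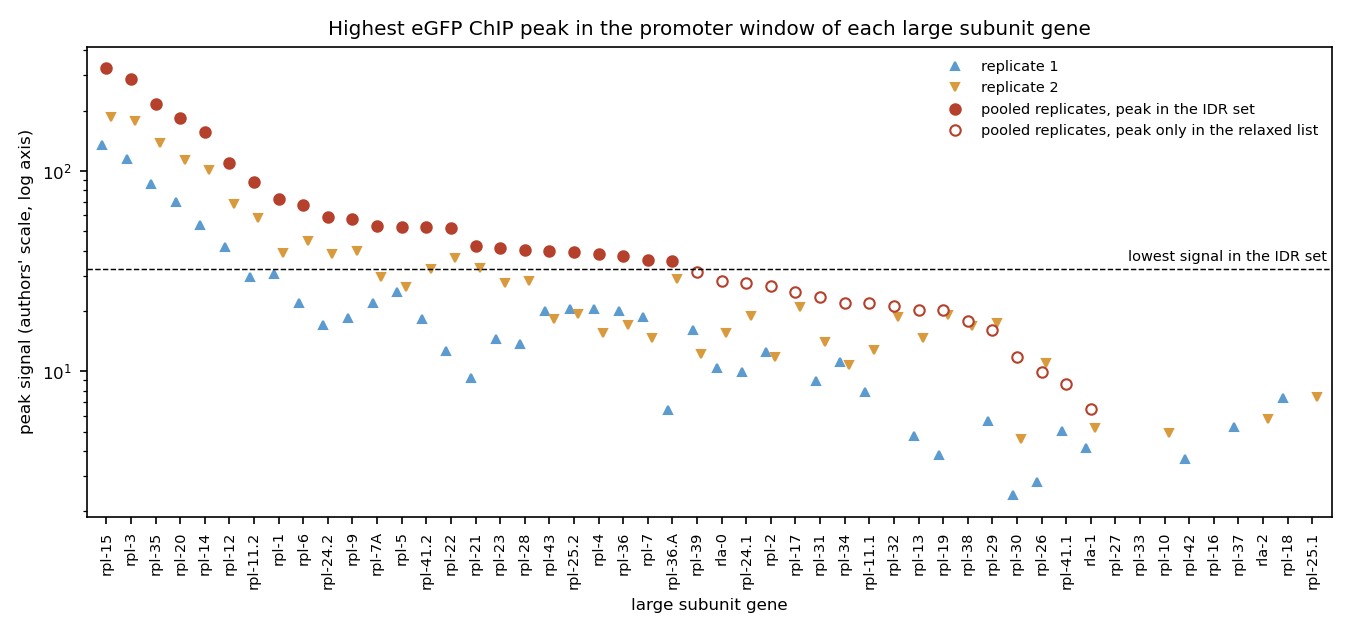
Signal of the highest peak in the promoter window of each of the 50 large subunit genes (log axis, the authors' scale), with filled circles for peaks in the IDR set, open circles for peaks in the relaxed pooled list only, and triangles for each replicate's own list, whose scale differs. Bound genes run from 325 at rpl-15 to 35.6 at rpl-36.A, the highest pooled peak outside the set is 31.3 at rpl-39, and rpl-16, rpl-27 and rpl-33 have no point.

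At the catalytic core and the exit tunnel, rpl-3, rpl-35, rpl-4 and rpl-25.2 were bound. The gene rpl-3 encodes uL3, which reaches towards the peptidyl transferase centre, and its peak had a signal of 114 in replicate 1 and 177 in replicate 2 (IDR signal 289, rank 46), 279 bp upstream of the start. The gene rpl-35 encodes uL29, beside the tunnel's mouth, with 86.5 and 138 in replicates 1 and 2 (IDR signal 216, 449 bp upstream). Both stood high in both replicates. By contrast rpl-4, for uL4 of the tunnel wall, had 20.4 in replicate 1 and 15.5 in replicate 2 (IDR signal 38.3, 260 bp upstream). The gene rpl-25.2, for a uL23 protein at the tunnel's mouth, had 20.4 and 19.4 (IDR signal 39.3, 144 bp upstream). These last peaks were near the low end of the IDR set, whose lowest signal was 32.5. Unbound genes for proteins of these regions included rpl-2 for uL2, with a pooled peak of 26.7, rpl-17 for uL22 of the tunnel wall, with 24.9, and rpl-39 for eL39 of the tunnel wall, with 31.3. The genes rpl-10, rpl-25.1 and rpl-26, for uL16, the other uL23 protein and uL24, were not bound either.

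Among the proteins that bind 5S ribosomal RNA, rpl-5 and rpl-11.2 were bound. The gene rpl-5 (uL18) had a signal of 24.8 in replicate 1 and 26.3 in replicate 2 (IDR signal 52.6, 400 bp upstream). The gene rpl-11.2, for one of the pair of uL5 proteins, had 29.7 and 58.4 (IDR signal 87.8, 385 bp upstream).

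At the stalks the picture was mixed. The gene rpl-12 encodes uL11, at the base of the stalk that receives elongation factors, and had a signal of 41.5 in replicate 1 and 68.3 in replicate 2 (IDR signal 109), with its summit only 33 bp upstream of the start, the nearest of all. The gene rpl-1 encodes uL1 of the opposite stalk, where spent tRNA leaves, and had 30.6 and 39.1 (IDR signal 72.4, 252 bp upstream). The genes of the acidic stalk itself were not bound. The gene rla-0, for its anchor uL10, had a pooled peak of 28.3, with 10.4 in replicate 1 and 15.6 in replicate 2, 262 bp upstream. The gene rla-1 (P1) had a pooled peak of 6.44, close to the lowest value in that list, 6.35, and rla-2 (P2) had only a replicate 2 peak of 5.80, 720 bp upstream. All 3 rla- genes thus lay below the IDR set, with rla-0 the nearest to it.

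Genes for proteins at the face to the small subunit and around factor binding were in part bound. Among those not bound were rpl-24.1 for eL24, rpl-19 for eL19 and rpl-41.1 for eL41, with pooled peaks of 27.5, 20.2 and 8.67. The gene rpl-9 (uL6, near the site of the elongation factors) had a signal of 18.4 in replicate 1 and 39.6 in replicate 2 (IDR signal 57.4, 244 bp upstream). The gene rpl-23, for uL14, which faces the small subunit, had 14.4 and 27.5 (IDR signal 41.0, 288 bp upstream). The gene rpl-41.2, for the very short eL41 between the subunits, had 18.2 and 32.5 (IDR signal 52.3, 254 bp upstream). Their ranks of 792 to 1406 in replicate 2 and 1276 to 1859 in replicate 1 placed all of them in both top lists. The gene rpl-36.A, for eL42 near the exit site of tRNA, had 6.39 in replicate 1, at rank 7171, and 28.9 in replicate 2, at rank 1307 (IDR signal 35.6, 359 bp upstream), and was the lowest bound member.

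The other bound genes encode proteins that mainly bind and hold ribosomal RNA. The highest peak of any member was at rpl-15 (eL15), with a signal of 135 in replicate 1 and 186 in replicate 2 (IDR signal 325, rank 33 of 2103), 349 bp upstream. It was followed in this group by rpl-20 (eL20), with 69.8 and 113 (IDR signal 183, 287 bp upstream), and by rpl-14 (eL14), with 53.6 and 101 (IDR signal 157, 298 bp upstream). These 3 and the core genes rpl-3 and rpl-35 were the 5 members among the 200 highest peaks of the whole set. In the middle lay rpl-6 (eL6), with 21.8 in replicate 1 and 44.8 in replicate 2 (IDR signal 67.3, 350 bp upstream). The gene rpl-7A (eL8) had 21.8 and 29.6 (IDR signal 52.9, 94 bp upstream), and rpl-22 (eL22) had 12.6 and 36.9 (IDR signal 52.1, 269 bp upstream).

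Lower still were rpl-21 (eL21), with 9.24 in replicate 1 and 32.9 in replicate 2 (IDR signal 42.0, 321 bp upstream), and rpl-28 (eL28), with 13.7 and 28.2 (IDR signal 40.5, 367 bp upstream). The gene rpl-43 (eL43) had 20.0 in replicate 1 and 18.3 in replicate 2 (IDR signal 39.9) and had the farthest summit of all, 760 bp upstream. The gene rpl-36 (eL36) had 19.9 and 17.0 (IDR signal 37.6, 415 bp upstream), and rpl-7 (uL30) had 18.7 and 14.7 (IDR signal 35.7, 329 bp upstream). The top lists ended at a signal of 13.3 in replicate 1 and 20.9 in replicate 2, each on its own scale, so that rpl-36, rpl-43 and rpl-7 passed in replicate 1 only. The last bound gene, rpl-24.2, codes for the relative of an assembly factor that in yeast holds the place of eL24 on unfinished subunits. It had 17.1 in replicate 1 and 38.3 in replicate 2 (IDR signal 58.6, 156 bp upstream).

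**Figure D2:**
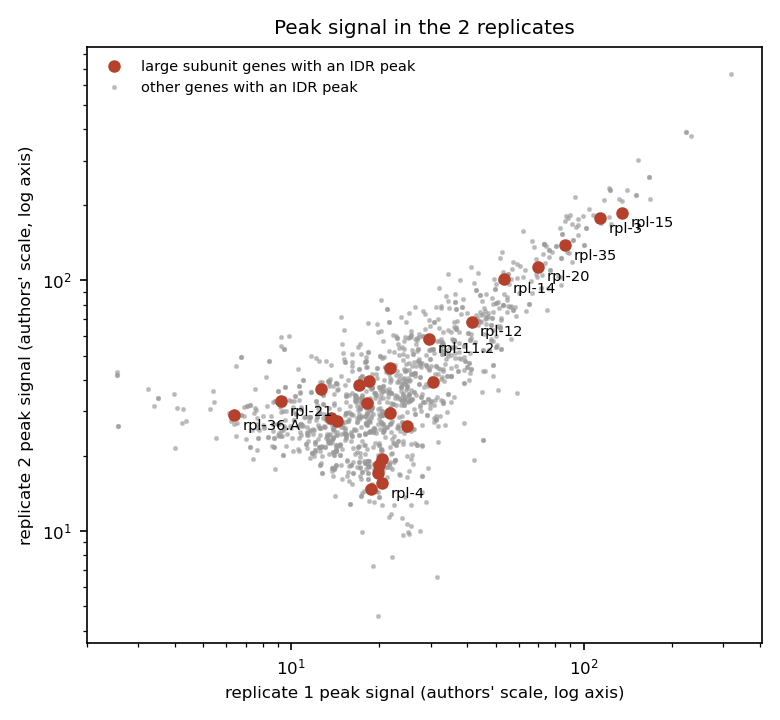
Signal of the highest promoter peak in replicate 1 (horizontal) and replicate 2 (vertical), both log axes on the authors' scale, for the 24 bound large subunit genes (red) and the other bound genes with a peak in both lists (grey). The 7 highest members, from rpl-15 down to rpl-11.2, lie along the diagonal. Some lower members are low in replicate 1, such as rpl-21 and rpl-36.A, and some are low in replicate 2, such as rpl-4. Other lower members, such as rpl-6 and rpl-5, reach both top lists.

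The members hold 6 pairs of genes that share a number, and in 4 of the 6 pairs 1 gene was bound and the other was not. Beside rpl-11.2, rpl-11.1 had a pooled peak of 22.0, with 7.83 in replicate 1 and 12.7 in replicate 2. Beside rpl-25.2, rpl-25.1 had only a replicate 2 peak of 7.45, and beside rpl-41.2, rpl-41.1 had a pooled peak of 8.67 that lay 100 bp downstream of its start. The gene rpl-24.1, for the mature protein eL24, was not bound and had a pooled peak of 27.5, with 9.87 in replicate 1 and 18.9 in replicate 2, beside the bound rpl-24.2. Both genes were bound for rpl-36 and rpl-36.A and for rpl-7 and rpl-7A, which share a number but encode unrelated proteins.

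Of the 26 genes that were not bound, 17 had a summit in the window in the relaxed pooled list, with signals of 6.44 to 31.3 and a median of 21.1. Of these 17, 12 were among the 5000 pooled peaks of highest signal, a count for which no share over other unbound genes is given here. Besides those already named, pooled peaks of 20.2 to 23.5 stood at rpl-31 (23.5), rpl-34 (22.0), rpl-32 (21.1), rpl-13 (20.2) and rpl-19 (20.2). Lower pooled peaks stood at rpl-38 (17.8), rpl-29 (16.1), rpl-30 (11.8) and rpl-26 (9.93). A replicate's top list held 2 of the unbound genes, rpl-39 that of replicate 1 with 16.1 and rpl-17 that of replicate 2 with 21.0. In all, 41 of 50 members (82.0%) had a pooled summit, against 41.9% of all protein-coding genes. The median of the highest pooled signal was 38.3 over these 41 members, against 11.9 over other genes with one. The genes rpl-10, rpl-18, rpl-37 and rpl-42, with rla-2 and rpl-25.1, had a summit in 1 replicate's list only, and rpl-16, rpl-27 and rpl-33 had none in any of the 4 lists. A relaxed summit in both replicates was found for 26.5% of all protein-coding genes.

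The bound members resembled each other in where the summit lay. The median distance was 293 bp upstream of the start (quartiles 254 and 361), against 266 bp (quartiles 141 and 487) at other bound genes. At 19 of 24 members (79.2%) the summit was 200 to 450 bp upstream, against 34.0% of other bound genes, a range chosen after the distances were seen. This position was not particular to the large subunit. Most bound small subunit (rps-) genes also had their summit in this range, with a median of 290 bp upstream. The summits of the separate replicates lay a median of 14.5 bp apart at these genes, and at most 84.0 bp, at rpl-1. No such distance for other bound genes is given here. No IDR summit lay inside the body of a member. What part trans-splicing has in the distances was not tested.

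**Figure D3:**
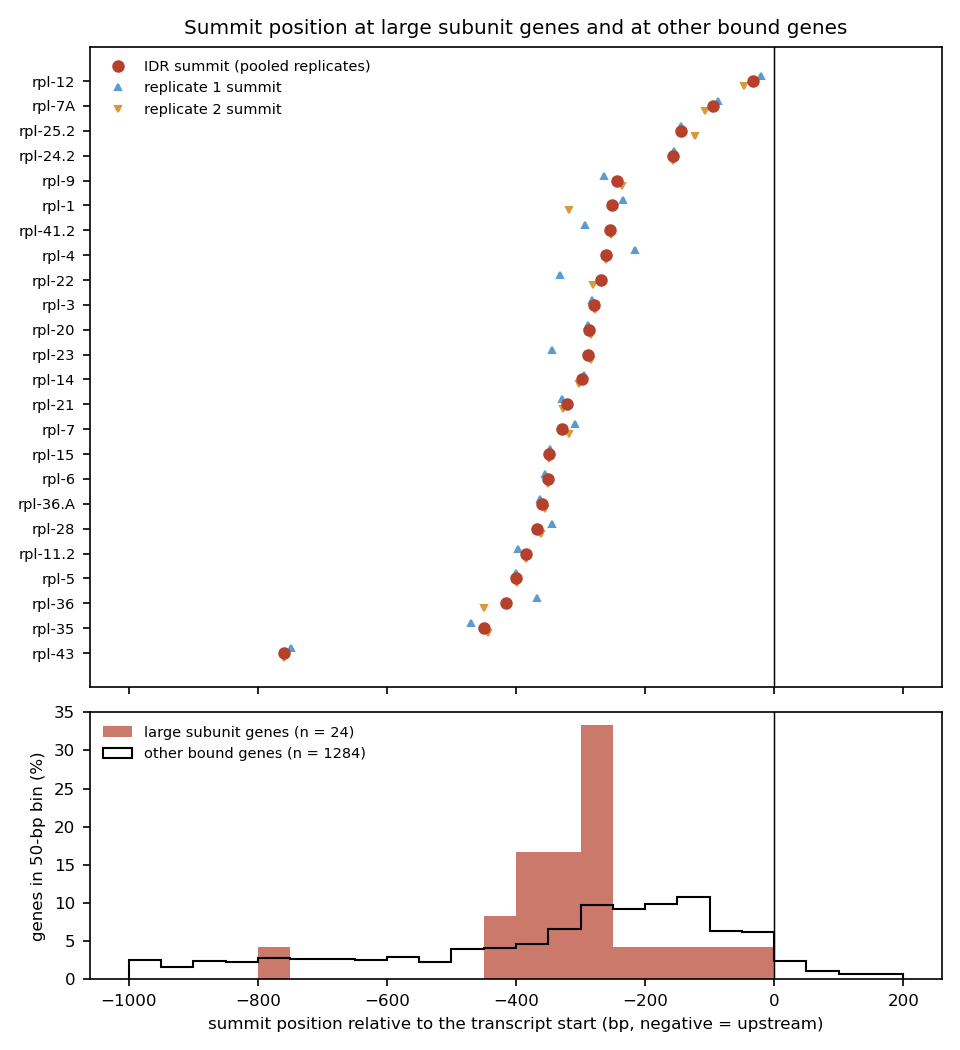
Summit position relative to the annotated transcript start, in bp with negative values upstream: above, for each of the 24 bound large subunit genes in the IDR set and in each replicate, and below, as percent of genes per 50-bp bin for these genes (filled) and for 1284 other bound genes (line). Most members fall between 200 and 450 bp upstream, with rpl-12 at 33 bp and rpl-43 at 760 bp, while other bound genes spread more widely.

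Many large subunit promoters are shared with a neighbour. A protein-coding neighbour that starts within 1000 bp and runs the other way was found at 29 of 50 members (58%), against 18.3% of all genes. Of those 29, 16 (55.2%) were bound, against 12.6% of all genes with such a neighbour, and of the other 21 members 8 (38.1%) were bound, against 5.19% of all genes without one. Members stood above the background in either class. Such neighbours were not particular to the large subunit. They were found at 61.3% of small subunit genes, 63.6% of assembly and nucleolus genes, 51.3% of translation factor genes and 36.6% of mitochondrial large subunit genes. Of the 24 member peaks, 17 (70.8%) had their summit also in the window of another protein-coding gene, against 23.5% of 1078 other promoter peaks.

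Only protein-coding starts were compared for distance here. The nearest of them was the member's own at 16 of 24 peaks and a neighbour's at 8. At 6 of the 24 peaks an annotated non-coding start lay within 200 bp of the summit, nearer than the member's own start. These were rpl-1 (6 bp), rpl-36.A (15 bp), rpl-5 (35 bp), rpl-9 (46 bp), rpl-7 (62 bp) and rpl-11.2 (112 bp). No such count over other promoter peaks is given here. With only the nearest protein-coding start counted, 16 members (32.0%) were bound, against 5.18% of all genes. Among the 8 with a nearer protein-coding neighbour, the peak of rpl-36 lay 248 bp from rps-14, a small subunit gene. That of rpl-28 lay 152 bp from mrpl-49, for a mitochondrial large subunit protein. That of rpl-36.A lay 274 bp from nuo-1, for a subunit of respiratory complex I. The peak of rpl-22 lay 168 bp from ify-1, which encodes securin. The others were rpl-20 with Y17G9B.5 at 175 bp, rpl-43 with Y48B6A.1 at 161 bp, rpl-4 with B0041.8 at 201 bp and rpl-21 with C14B9.10 at 304 bp. Where the member was nearest, rpl-9 shared its peak with lpd-7, a ribosome assembly gene 275 bp away, rpl-12 with lin-54, for a DNA-binding protein of the DREAM complex, and rpl-7 with rab-11.1, for a membrane traffic GTPase. Which gene of such a pair a peak acts on cannot be told apart from peak positions.

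Other genes of protein synthesis were set beside the large subunit. Of 31 small subunit (rps-) genes, 17 (54.8%) were bound, with a median signal of 51.1 and a median distance of 290 bp upstream, and the highest were rps-1 (205), rps-12 (191), rps-19 (162) and rps-28 (105). These values lay close to those of the large subunit, and the difference was not tested. Of 41 genes of the mitochondrial large subunit, 4 (9.76%) were bound, mrpl-55 (41.4), mrpl-49 (40.5, the peak of rpl-28), mrpl-28 (40.1) and mrpl-12 (35.3). Of 22 genes for large subunit assembly and the nucleolus, 4 (18.2%) were bound, lpd-7 (57.4, the peak of rpl-9), fib-1 (42.6), rbd-1 (40.5) and nol-10 (34.5). Of 39 translation factor genes, 10 (25.6%) were bound, led by iff-2 (421), eef-1A.2 (287), eef-1A.1 (89.1) and eef-2 (71.4).

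Motifs that were frequent at other promoter peaks were seen at few large subunit peaks. Within 50 bp of the summit, the palindromic E-box CACGTG, the site of Myc and Mad type helix-loop-helix dimers, occurred at 1 of 24 member peaks (4.17%), that of rpl-14, against 16.2% of other promoter peaks and 1.54% of all promoters in a window of equal length centred 293 bp upstream. The repeat GAGAGA occurred at 2 (8.33%), rpl-11.2 and rpl-24.2, against 30.2% of other promoter peaks and 6.08% of all promoters. Its share at members was 20.8% within 100 bp of the summit, against 45.9% of other promoter peaks, and 13.6% at the member peaks of replicate 1 alone. The octamer CTGCGTCT occurred at 1 (4.17%), rpl-21, against 13.1% and 0.891%. The degenerate E-box CANNTG, which includes CACGTG, was at 7 (29.2%), against 48% and 30.6%. The remaining motifs were infrequent at member peaks and other promoter peaks alike. They were GGGCGG at 1 member peak (4.17%), against 5.66% of other promoter peaks and 1.98% of all promoters, the GATA-type word TGATAA at 1, against 7.61% and 10.5%, the homeobox-type word AATTAA at 1, against 4.17% and 18.3%, and an E2F-type site at 0 of 24, against 5.94% and 2.31%. Both strands were searched, and a match is only a run of letters. The windows held 50% G and C at members and 47.9% at other promoter peaks, against 34.4% over all promoters.

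The member peaks shared other strings, found by ranking all words after the windows were seen, so that their shares describe these windows and test nothing. Of 2080 6-letter words (reverse complements merged), ACCGTA had the largest difference in share, with 10 of 24 member peaks (41.7%) against 5.19% of other promoter peaks and 3.01% of all promoters. Of 8110 7-letter words found, CGAGTGT had the largest, with 9 of 24 (37.5%) against 1.76% and 0.546%. Both together were found at 7 of 24 (29.2%) against 0.649% and 0.0801%, and either at 12 (50%) against 6.31% and 3.47%. Next in the list of 6-letter words came CGAGTG and GAGTGT, which overlap the heptamer, and GAGACC at 9 peaks (37.5%) against 8.63%. Of the 5 highest member peaks, 4 held 1 or both of the strings, all but rpl-35, whose printed window has neither. The median signal was 69.8 for the 12 peaks with either and 46.6 for the 12 with neither.

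**Figure D4:**
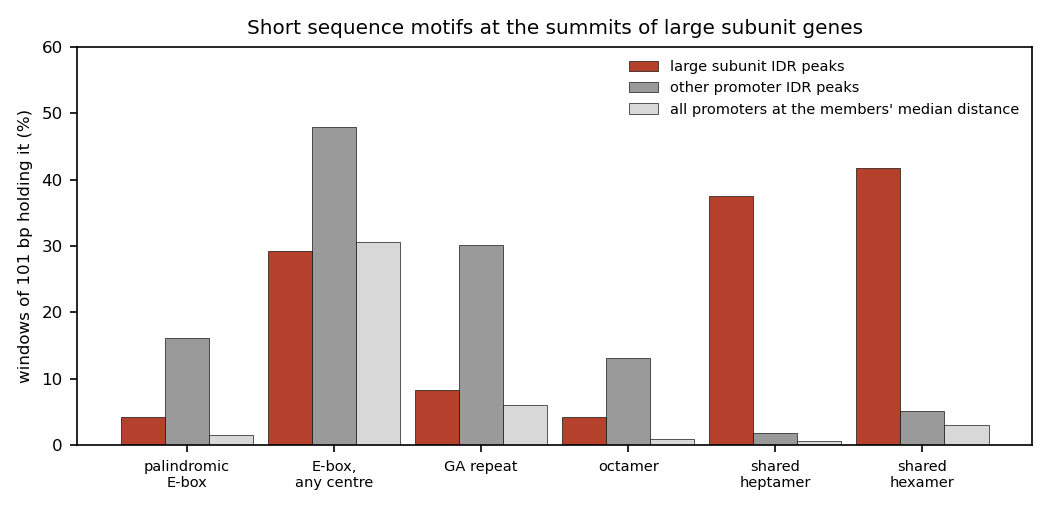
Percent of 101-bp windows that hold each motif on either strand, for the 24 large subunit peaks (red), other promoter peaks (dark grey) and all protein-coding promoters at the members' median summit distance (light grey). The E-boxes, the GA repeat and the octamer are lower at large subunit peaks than at other promoter peaks, and the heptamer and hexamer, picked because they differ, are at 37.5% and 41.7%.

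Both strings were then counted at peaks other than the 24. At the 17 unbound members with a pooled summit, ACCGTA lay within 50 bp at 6 (35.3%) and CGAGTGT at 3 (17.6%), against 2.69% and 0.610% of 8523 other promoter peaks of the pooled list below the IDR set. At the 16 small subunit peaks that are not also member peaks, ACCGTA lay at 6 (37.5%) and CGAGTGT at 3 (18.8%). At 1062 promoter peaks of no ribosomal protein gene the shares were 4.71% and 1.51%. The small subunit genes had contributed to the other promoter peaks in the ranking, and the unbound members had no part in it.

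The side-by-side arrangement printed above was then counted over the genome, with no expected number of copies to set beside the counts. On the 6 nuclear chromosomes there were 30 copies of CGAGTGT followed after 1 base by ACCGTA, and 28 lay in the promoter window of a protein-coding gene. Of the 30, 9 (30.0%) lay in the window of a large subunit gene, while large subunit genes are 0.25% of protein-coding genes. That count is not independent of how the words were found, since bound members supplied the windows. The 9 genes were rpl-1, rpl-6, rpl-11.2, rpl-21 and rpl-22, which were bound, and rpl-19, rpl-24.1, rpl-29 and rpl-34, which were not. Small subunit genes accounted for 6 copies, at rps-7, rps-10, rps-13, rps-18, rps-23 and rps-29, of which that of rps-10 is the copy of rpl-24.1. Together 14 of 30 copies stood at ribosomal protein genes.

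At the 9 large subunit genes the copies lay 216 to 421 bp upstream of the start, and in 8 of 9 the arrangement read in the direction of the gene, with rpl-1 the exception. All 9 were preceded by 2 A, and so were 15 of 16 copies at no ribosomal protein gene. A summit of the pooled list lay within 150 bp of all 9, at a median distance of 36.0 bp (14 to 73). At the 5 bound genes this closeness follows from the choice of words near their IDR summits, and the 4 unbound genes were not part of that choice. At rpl-24.1 the summit was 15 bp from the copy in the pool, 4 bp in replicate 1 and 15 bp in replicate 2. At rpl-34 these distances were 18, 2 and 58 bp and at rpl-19 38, 47 and 141 bp, and at rpl-29 the pooled summit was 73 bp away and that of replicate 1 was 581 bp away. Of the 5 copies at small subunit genes alone, 4 had a pooled summit within 150 bp, and of the 16 at no ribosomal protein gene, 10 had one. Which protein, the tagged factor or another, meets the DNA at these copies was not tested.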

How the data were processed

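The data were ChIP-seq peak lists on build ce11 from 2 biological replicates. The authors deposited, per the labels, a relaxed list per replicate, one on the pooled replicates, and the IDR set. The deposited signal of each peak is the authors' own value on an unstated scale, and ranks peaks only inside its own list. The sources used here do not give the aligner, peak caller, IDR threshold or depth. The fragments were 150 to 350 bp, per the labels. The lists on ce10 were not used here.

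From these, summits were placed at every protein-coding transcript start of Ensembl release 115 (WBcel235), from 1000 bp upstream to 200 bp downstream. A summit counted for each gene whose window held it, and the nearest start was sought among protein-coding starts. A gene's value is its highest-signal summit. Each replicate's 2103 highest-signal peaks formed its top list, so replicates are compared by membership and rank, and their signals, on separate scales, stand side by side as deposited. The relaxed lists hold 30000 peaks per replicate and 28651 for the pool. Sequence came from the RefSeq WBcel235 genome, and 8 motifs were looked for up to 50 bp from each summit, on either strand. Gene products were matched by WormBase gene ID.

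All bound members, all rla- genes and all sets sharing a number were named, with other lists limited to the 4 highest bound genes. The members and lists were chosen with earlier results of these data known, and the shared words after seeing the windows. The assignment of summits was tested on simulated data. Alternatives changed the window, the start used, the number of peaks, the list and the replicate. Tables were made with pandas 2.3.3 and numpy 2.4.6 under Python 3.11.15, figures with matplotlib 3.10.9, and intervals with scipy 1.17.1.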

Additional observations from a re-analysis of the deposited data

How the results depend on the processing

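Of 87 values under alternatives, 26 moved, by more than 1.5 times for counts and shares or by more than 1 SD of the replicates for medians, and 61 did not. For the median signal that SD was 5.98, from replicate lists with separate scales, so that its moves are to be read with care. With the nearest start only, bound members numbered 16 (32%), which is within that limit. For those that moved, the cause was not tested unless fewer or more peaks made the move by construction. With the 500 highest IDR peaks alone, 7 members (14%) and 4 small subunit genes were bound, against 1.60% of all genes, with a median member signal of 183, 3 shared peaks and 6 nearest to a member. With all pooled relaxed peaks the same quantities were 41 (82.0%) and 29, against 41.9%, with 38.3, 32 and 31. With the nearest start only, 8 small subunit genes were bound, the median member signal was 63.0 and 9 member peaks were shared. IDR peaks that overlap both top lists gave a median signal of 69.8 and 9 shared peaks. A window of 2000 bp upstream gave a median offset of -321 bp and added rpl-13, rpl-16 and rpl-29. It gave 54.0% of members bound, against 8.82% of all genes. One of 500 bp upstream to 100 bp downstream lost rpl-43 and gave 46.0%, against 5.02%. Within 100 bp of the summit GAGAGA was at 20.8% and CTGCGTCT at 8.33% of member peaks, against 45.9% and 17.7% of other promoter peaks. Members in both top lists numbered 9 with 1000 peaks per replicate and 28 with 5000, counts for which no share over all genes is given here.

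With each replicate left out in turn, bound members numbered 20 to 22 (40% to 44.0%), against 6.36% to 6.46% of all genes, and small subunit genes 16 to 17. The median offset was -310.0 to -294 bp, with 13 to 15 shared peaks and 13 to 17 nearest to a member. The share with CACGTG was 4.55% to 5%, with GAGAGA 10% to 13.6% and with CTGCGTCT 4.55% to 5%. The added words, an alternative chosen after seeing the data, stood at 31.8% to 35% for CGAGTGT and 36.4% to 40% for ACCGTA. The median signal is not given for a replicate alone, since each list has its own scale. No paired analysis was possible because there is 1 group. Depth is unknown, so no limit from counting reads can be given.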

Other observations

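The side-by-side arrangement of CGAGTGT and ACCGTA also stood at 16 places with no ribosomal protein gene, 4 of them within 150 bp of an IDR summit. The highest was at ndk-1, a nucleoside diphosphate kinase gene, with a signal of 91.8 in replicate 1 and 144 in replicate 2 (IDR signal 234, rank 74) and the summit 52 bp from the copy. At pdtf-1 and T26A8.4, which share a promoter, the signals were 69.8 and 116 (IDR signal 181, 37 bp). The others were at trap-2 and ile-2 (IDR signal 63.2, 11 bp) and at npp-3, for a nuclear pore protein, and top-2, for a DNA topoisomerase (60.9, 12 bp). At eel-1 a summit of replicate 1 lay on the copy with a signal of 23.4, while the nearest summit of replicate 2 was 233 bp away.

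The ribosome also needs RNA that is not coded by the rpl- genes. None of 20 annotated ribosomal RNA genes had an IDR summit in its window (0 of 20), against 6.55% of all protein-coding genes. The exact 95% upper bound of 16.8% treats the 20 genes as independent, which repeated copies may not be, so no conclusion is drawn from it. A pooled summit was found at 1 of the ribosomal RNA genes. These genes are largely repeated copies, and how reads from repeated copies were treated is not given in the sources used here. Small nucleolar RNAs guide chemical changes of ribosomal RNA, and 12 of their genes lie inside 8 members, rpl-2, rpl-4, rpl-6, rpl-7, rpl-7A, rpl-15, rpl-24.1 and rpl-26. Of these 8 hosts, 5 were bound, beside 24 of all 50 members (48%). Among other protein-coding genes with such a gene inside, 46 of 184 (25%) were bound. Whether hosts differ from the other members was not tested.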
